A study of Homo sapiens with 10 samples.

Results

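Tubulin isotypes are the products of separate genes for the same building block of microtubules. Transcripts of 10 of these genes were followed: TUBA1A, TUBA1B, TUBA1C and TUBA4A for alpha-tubulin, and TUBB, TUBB2A, TUBB2B, TUBB3, TUBB4B and TUBB6 for beta-tubulin. They were chosen by symbol from a gene table of 20263 genes, and all 10 are in it. The table comes from RNA sequencing of PANC-1, an established line from a human carcinoma of the pancreas. They were kept for 24 h with 20 µM LY or with DMSO, the vehicle, and LY stands for lycorine, a plant alkaloid known to inhibit protein synthesis on ribosomes. The labels give 5 libraries per group, whereas the series text speaks of 4. The LY libraries are called LY-1 to LY-5, and the control columns NC-1 to NC-5 were taken as the DMSO group as a whole because their name is in no sample title. Whether replicate libraries are separate cultures is not stated, so p-values measure only the spread between these libraries, which may be technical.

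Microtubules are polymers of alpha- and beta-tubulin dimers, and the isotypes differ mainly in their C-terminal tails. Cells hold the dimer level by autoregulation. When free dimers are plentiful, TTC5 binds the first residues of nascent alpha- or beta-tubulin as they leave the ribosome and, through SCAPER and CNOT11, brings the CCR4-NOT deadenylase to the mRNA that is being translated. The signal is therefore in the coding start, and it is read only on translating ribosomes. Among the isotypes, TUBB3 (class III) is known from neurons and from aggressive carcinomas, TUBB6 (class V) for less stable microtubules, and TUBA1B, TUBA1C, TUBB and TUBB4B as the common forms of dividing cells.

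The coding starts of the members are shown because they carry the stretch that TTC5 reads. Each line gives the first 30 coding bases, 5′ to 3′, of the principal transcript in GENCODE release 29 (hg38), with the first 12 bases, which encode that stretch, in capitals. The gamma-tubulin genes TUBG1 and TUBG2 stand beside them as tubulins of another family.
TUBA1A: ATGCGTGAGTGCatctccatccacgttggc
TUBA1B: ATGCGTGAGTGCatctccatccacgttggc
TUBA1C: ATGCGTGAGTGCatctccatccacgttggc
TUBA4A: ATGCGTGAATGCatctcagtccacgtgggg
TUBB: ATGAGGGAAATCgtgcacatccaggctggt
TUBB2A: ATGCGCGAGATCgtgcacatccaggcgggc
TUBB2B: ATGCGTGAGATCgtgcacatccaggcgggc
TUBB3: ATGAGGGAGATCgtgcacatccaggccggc
TUBB4B: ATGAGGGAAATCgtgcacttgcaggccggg
TUBB6: ATGAGGGAGATCgtgcacatccaggcgggc
TUBG1: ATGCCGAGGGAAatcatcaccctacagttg
TUBG2: ATGCCCCGGGAGatcatcaccctgcagctg
Every member began with ATG, an arginine codon (AGA, AGG or CGN) and a glutamate codon (GAA or GAG), followed by TGC for cysteine in the alpha genes and ATC for isoleucine in the beta genes. In the gamma-tubulin genes a proline codon separates ATG from the arginine codon. Of 19363 genes of the table with a searched coding start, 44 (0.227%) began with ATG, arginine and glutamate codons. Of these 44, 9 had an isoleucine codon next and all 9 were beta-tubulin genes, and 9 had a cysteine codon next and all 9 were alpha-tubulin genes. TUBA1A, TUBA1B and TUBA1C are identical over all 30 bases. Among the beta genes the capitals differ only in synonymous bases of the arginine and glutamate codons, and alpha and beta genes differ in the amino acid of the fourth codon. A match is a description of the letters and does not show that the mRNA was under this control.

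Levels are deposited TPM (transcript abundance scaled for transcript length and to the same total in every library), given as the mean ± SD over 5 libraries. Differences are LY over DMSO on the log2(TPM + 1) scale ± SE, tested with limma and adjusted by Benjamini-Hochberg over 11663 genes. Genes with at least 1 TPM in at least 5 of the 10 libraries were tested, and an adjusted p under 0.05 was called a change. Adding 1 understates the change of low genes. TPM keeps no read totals, so depth is unknown. Control NC-2 stood apart, with 37.5% of its TPM in mitochondrially encoded genes against 12.2% to 14.1% in the other controls and 6.43% to 14.9% in LY. Without NC-2, 4607 genes were higher and 3610 lower, and the median of all genes was 0.099. As deposited, 4639 genes were higher and 2899 lower in LY, and the median log2 difference of all tested genes was 0.17. Median-ratio scaling gave a split of 3977 higher and 3757 lower, quantile normalization 4056 and 3697, upper-quartile scaling 3452 and 4228, and leaving out mitochondrial genes 3871 and 3812. The median of all genes was between -0.058 and 0.050 under these 4 scalings. In bulk RNA, fewer cells with a transcript and less of it per cell cannot be told apart.

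LY-treated cells had less of TUBB and TUBB3 mRNA, somewhat less TUBB2A and TUBB2B mRNA, and more TUBB6 mRNA. Of the 9 members that passed the filter on low values, 1 rose, 4 fell and 4 were not called, and TUBA4A was too low to be tested. These 5 called members of 9 stand beside 64.6% of all tested genes called. The share higher in LY was 39.8% of all genes and the share lower 24.9%. The groups did not overlap in 3 of the 9 (TUBB, TUBB3 and TUBB6), against 49.4% of all tested genes. All 5 called members were beta-tubulins. Under each of the 4 scalings 1 member was higher, while the number lower was 6 (median-ratio), 5 (quantile), 7 (upper-quartile) and 6 (mitochondrial genes removed). In the same order, 32.2%, 31.7%, 36.3% and 32.7% of all tested genes were lower under these scalings. The median log2 difference of the 9 was -0.39, beside 0.17 for all genes. A number of calls near the background share is not a result about tubulins, and what follows is the pattern among them.

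**Figure D1:**
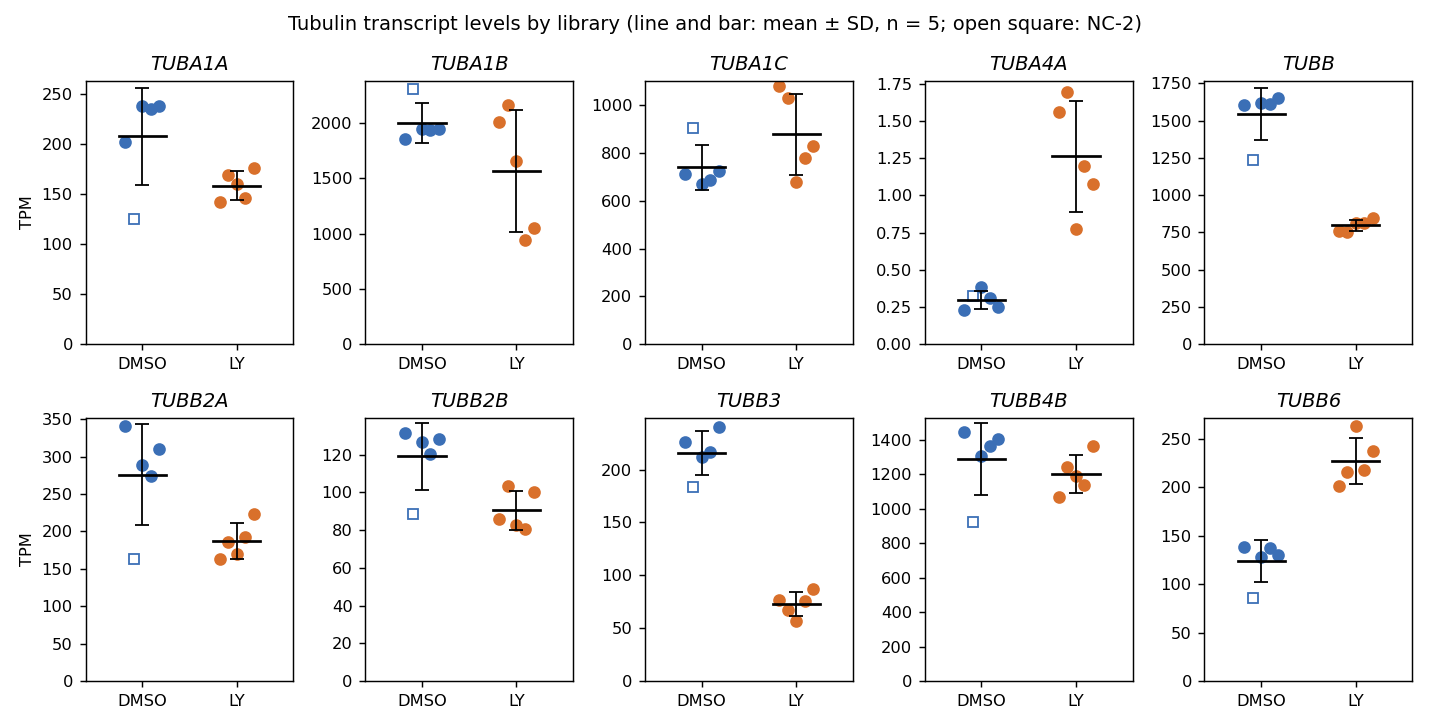
TPM of each member in every library, with its own linear axis from 0 in each panel. Points are libraries, the open square is NC-2, and the line and bar are the mean ± SD over 5 libraries. TUBB, TUBB3 and TUBB6 show no overlap between LY (orange) and DMSO (blue), and TUBA4A reaches at most 1.70 TPM.

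TUBB (ENSG00000196230, chromosome 6, 30720201 to 30725426, plus strand), the class I beta-tubulin of most dividing cells, measured 1604, 1235, 1619.7, 1612 and 1651 TPM in NC-1 to NC-5. In LY-1 to LY-5 it measured 761, 756, 812, 811 and 845 TPM. Every LY library was below every control, NC-2 included, and the 5 LY values lay close together. The means were 797 ± 37.9 TPM in LY and 1544 ± 174 in DMSO, and TUBB fell by 0.95 ± 0.11 on the log2 scale (limma adjusted p = 1.22e-05). By mean level it was the second most abundant member in DMSO and the fourth in LY. On the other strand, 16.0% of the exon bases of TUBB lie in exons of a gene that is not in the table. Whether counting used strand is not stated.

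TUBB3 (ENSG00000258947, chromosome 16, 89921392 to 89938761, plus strand), the neuronal class III isotype, changed most among the tested members. It measured 226, 183, 212, 217 and 240.0 TPM in NC-1 to NC-5 and 76.7, 66.8, 56.9, 75.7 and 87.1 TPM in LY-1 to LY-5. The highest LY library was far below the lowest control. The mean was 2.97 times as high in DMSO (216 ± 20.9 TPM) as in LY (72.6 ± 11.4 TPM), and TUBB3 fell by 1.56 ± 0.12 on the log2 scale (limma adjusted p = 4.98e-07). A readthrough gene on the same strand (ENSG00000198211) shares 89.0% of the 100-base windows of the TUBB3 transcript. It was listed at 1.91 ± 0.566 TPM in DMSO and 1.21 ± 0.698 in LY, so the table put nearly all of this signal on TUBB3. Of 8 neuronal marker genes, SNAP25, STMN2 and DCX were at 0 in every library, NEFL, RBFOX3 and ELAVL3 had group means under 1 TPM, and SYP and SYT1 were at 12.1 and 12.6 TPM in DMSO and 18.1 and 20.6 TPM in LY. Both of these were higher in LY (log2 difference 0.59 ± 0.23, limma adjusted p = 0.0415, and 0.68 ± 0.13, limma adjusted p = 0.000574), the opposite direction to TUBB3. For SYP the groups overlapped (13.1 TPM in LY-1, 15.0 TPM in NC-3), and NC-2 was its lowest control at 5.47 TPM. SYT1 did not overlap between the groups. Alternative settings are not given for SYP and SYT1. RBFOX3, untested, was at 0.483 TPM in DMSO and 0.161 in LY, with overlapping groups.

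TUBB2A and TUBB2B encode the class II isotypes and lie near each other on chromosome 6 (3153669 to 3157526 and 3224261 to 3231730, both minus strand). TUBB2A measured 340.3, 164, 289, 275 and 311 TPM in NC-1 to NC-5 and 163, 186, 169.9, 193 and 223 TPM in LY-1 to LY-5. TUBB2B measured 132, 88.5, 127, 120.4 and 128 TPM in the controls and 85.9, 103, 82.6, 80.7 and 100.02 TPM in LY. In both genes NC-2 lay within the LY values and the other 4 controls above all of them. TUBB2A fell by 0.52 ± 0.18 on the log2 scale (limma adjusted p = 0.0229) and TUBB2B by 0.39 ± 0.13 (limma adjusted p = 0.0178). The TUBB2A call was lost when LY-1 (limma adjusted p = 0.0536), LY-3 (0.0525), NC-1 (0.0599) or NC-5 (0.055) was left out, whereas without NC-2 it fell by 0.70 ± 0.10 (0.000105). The coding sequences of the pair are 98.13% identical, and 56.4% of the 100-base windows of TUBB2A and 46.2% of those of TUBB2B occur in another gene's transcript. How the authors assigned such reads is not given in the sources used here, so the 2 genes are uncertain as single values.

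TUBB6 (ENSG00000176014, chromosome 18, 12307669 to 12344320, plus strand), the class V isotype, was the 1 tested member that rose. It measured 138, 85.7, 128, 138 and 129.8 TPM in NC-1 to NC-5 and 201, 216, 263, 218 and 238 TPM in LY-1 to LY-5. All LY libraries were above all controls. The means were 227 ± 24.0 TPM in LY and 124 ± 21.8 in DMSO (log2 difference 0.89 ± 0.14, limma adjusted p = 0.000138). Leaving out NC-2 gave 0.76 ± 0.086. No 100-base window of TUBB6 occurs in another gene's transcript on the same strand. On the other strand, 20.3% of its exon bases lie in exons of AFG3L2, a mitochondrial protease gene that also rose (92.6 to 186 TPM, log2 difference 1.004 ± 0.13). Whether counting used strand is not stated, so reads of the 2 genes cannot be told apart there.

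TUBB4B (ENSG00000188229, chromosome 9, 137241213 to 137243707, plus strand), the class IVb isotype, did not pass the test. It measured 1447, 926, 1308, 1367 and 1406 TPM in NC-1 to NC-5 and 1070.4, 1244, 1191, 1138 and 1367 TPM in LY-1 to LY-5, and the groups overlapped with and without NC-2. Its log2 difference was -0.090 ± 0.14 (limma adjusted p = 0.585). Median-ratio scaling, upper-quartile scaling and leaving out mitochondrial genes each made TUBB4B a lower call (-0.24 ± 0.093, -0.34 ± 0.093 and -0.25 ± 0.077). Quantile normalization did not (-0.12 ± 0.087). Without NC-2 the TUBB4B difference was -0.21 ± 0.087 (limma adjusted p = 0.053), and with median-ratio scaling in addition it was called lower (-0.28 ± 0.082, limma adjusted p = 0.00947).

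The makeup of the beta-tubulin pool differed between the groups. Each share is taken within a library, so multiplying a library by a constant leaves it as it is. TUBB made up 31.0 ± 1.42% of the summed TPM of the 6 beta members in LY and 43.4 ± 1.76% in DMSO. TUBB4B made up 46.6 ± 1.41% in LY and 36.1 ± 1.06% in DMSO, so the leading beta transcript was TUBB in every control and TUBB4B in every LY library. TUBB6 held 8.82 ± 0.791% in LY and 3.45 ± 0.189% in DMSO, and TUBB3 held 2.82 ± 0.417% and 6.08 ± 0.459%. The shares of these 4 genes did not overlap between the groups. NC-2 was close to the other controls here, with 46.0% TUBB against 41.3% to 44.0%, and 3.19% TUBB6 against 3.36% to 3.69%. TUBB2A (7.25 ± 0.508% in LY and 7.62 ± 0.985% in DMSO) and TUBB2B (3.51 ± 0.338% and 3.34 ± 0.0835%) kept overlapping shares. No p is given for shares, because the members were chosen together with results of these data known.

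**Figure D2:**
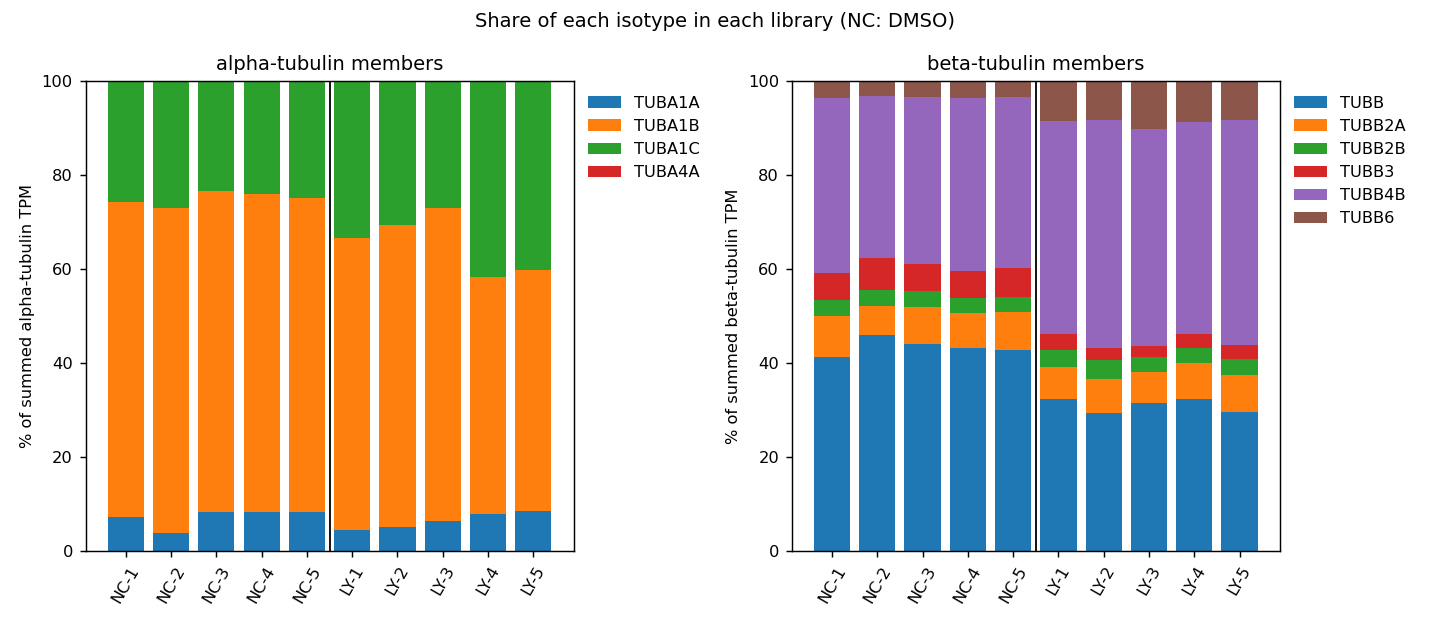
Share of each member in the summed TPM of its family (vertical axis, percent), per library, with controls left of the black line and LY right of it. In the beta panel TUBB narrows from 41.3% to 46.0% in controls to 29.4% to 32.3% in LY while TUBB4B and TUBB6 widen. In the alpha panel TUBA1C reaches 41.6% in LY-4 and 40.2% in LY-5, and the share of TUBA4A is too small to see.

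Alpha-tubulin transcripts showed no call as deposited. TUBA1B (ENSG00000123416, chromosome 12, 49127782 to 49131397, minus strand), the member with the highest mean in both groups, measured 1857, 2313, 1949, 1934 and 1945 TPM in NC-1 to NC-5 and 2013, 2161, 1660.5, 946 and 1054 TPM in LY-1 to LY-5. LY-1 and LY-2 lay at the level of the controls and LY-4 and LY-5 far below it. The LY mean of 1567 ± 549.9 TPM therefore stands for libraries that differed more among themselves than from the DMSO mean of 1999.8 ± 179. The log2 difference was -0.43 ± 0.22 (limma adjusted p = 0.114). It was called lower without LY-2 (-0.56, limma adjusted p = 0.0426) and with upper-quartile scaling (-0.67, limma adjusted p = 0.0299).

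TUBA1C (chromosome 12, 49188736 to 49274603, plus strand) measured 712, 905, 670.3, 688 and 725 TPM in NC-1 to NC-5 and 1079, 1028, 677, 779 and 827 TPM in LY-1 to LY-5. The groups overlapped, and the log2 difference was 0.23 ± 0.15 (limma adjusted p = 0.18). It was -0.014 ± 0.18 with upper-quartile scaling. TUBA1A (chromosome 12, 49184796 to 49189324, minus strand), known from neurons, measured 202, 125, 238, 235 and 238 TPM in NC-1 to NC-5 and 142, 169.7, 160.1, 146 and 176 TPM in LY-1 to LY-5. NC-2 was below every LY library and the other controls above all of them. The TUBA1A difference was -0.35 ± 0.17 (limma adjusted p = 0.0885). It was called lower without NC-2 (-0.53 ± 0.089, limma adjusted p = 0.000286) and under all 4 scalings (-0.50 to -0.61).

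TUBA4A (ENSG00000127824, chromosome 2, 219249711 to 219278170, minus strand), known from platelets and brain, reached 1 TPM in only 4 libraries and was not tested. It was listed at 0.228, 0.323, 0.383, 0.311 and 0.252 TPM in NC-1 to NC-5 and at 1.56, 1.70, 0.775, 1.20 and 1.08 TPM in LY-1 to LY-5. All LY values were above all DMSO values at these low levels. With no filter it was called higher (log2 difference 0.79, limma adjusted p = 9.7e-05), and 15.4% of its exon bases lie in exons of STK16 on the other strand (23.8 ± 2.71 TPM in LY, 26.7 ± 7.70 in DMSO).

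Within the alpha pool, TUBA1B held 59.0 ± 7.52% in LY and 67.8 ± 0.944% in DMSO, and TUBA1C 34.6 ± 6.21% and 25.04 ± 1.42%. These shares did not overlap between the groups, but the nearest libraries were close (TUBA1C 27.1% in LY-3 and 27.1% in NC-2). TUBA1A shares overlapped (6.43 ± 1.76% in LY, 7.16 ± 1.96% in DMSO). The coding sequences of TUBA1A, TUBA1B and TUBA1C are 95.87% to 97.2% identical, and 37.2% of the 100-base windows of TUBA1B occur in another gene, mostly TUBA1C and TUBA1A. A gene on the other strand covers 36.6% of the exon bases of TUBA1B and is not in the table. TUBA1A and TUBA1C share 490 exon bases on opposite strands, 14.3% of the exon bases of TUBA1A and 10.6% of those of TUBA1C. A shift between these 3 genes is therefore uncertain.

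Summed alpha-tubulin was 2604 ± 674 TPM in LY and 2948 ± 226 in DMSO, with overlapping groups (log2 ratio of the means -0.18). Summed beta-tubulin was 2576 ± 182 TPM in LY and 3569 ± 504 in DMSO (log2 ratio -0.47). NC-2, at 2682 TPM, lay among the LY values of 2358 to 2861 TPM, and the other 4 controls ran from 3683 to 3887 TPM. The 10 members together held 0.518 ± 0.0601% of a library's TPM in LY, against 0.652 ± 0.0289% in DMSO, and the groups did not overlap. The alpha to beta ratio was 1.37, 1.31, 0.970, 0.744 and 0.719 in LY-1 to LY-5 and 0.713, 1.25, 0.776, 0.767 and 0.752 in NC-1 to NC-5. It was high in LY-1, LY-2 and NC-2, where 14.9%, 11.4% and 37.5% of TPM was mitochondrial. In the other LY libraries that share was 6.43% to 7.55%. The other 4 controls, at 12.2% to 14.1%, had low ratios of 0.713 to 0.776, and LY-3, with the lowest share, had 0.970. A link between the ratio and the mitochondrial share was not tested.

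In DMSO the order of levels was TUBA1B, TUBB, TUBB4B, TUBA1C, TUBB2A, TUBB3, TUBA1A, TUBB6, TUBB2B and TUBA4A. TUBB overlapped TUBB4B in range, and each of TUBB2A to TUBB6 overlapped its next neighbour. Within each library, however, TUBB was above TUBB4B and TUBA1A above TUBB6 in all 5 controls, and those ranges overlapped only through NC-2. For the other overlapping neighbours the order changed between controls. In LY the order was TUBA1B, TUBB4B, TUBA1C, TUBB, TUBB6, TUBB2A, TUBA1A, TUBB2B, TUBB3 and TUBA4A. There the ranges were separate only between TUBB and TUBB6, between TUBA1A and TUBB2B, and between TUBB3 and TUBA4A. Within each library TUBB6 was above TUBB2A, TUBB2A above TUBA1A and TUBB2B above TUBB3 in all 5 LY libraries. The top rank changed, with TUBB4B above TUBA1B in LY-4 (1138 against 946 TPM) and LY-5 (1367 against 1054 TPM). TUBB3 thus stood ahead of TUBB6 in every control and behind it in every LY library.

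**Figure D3:**
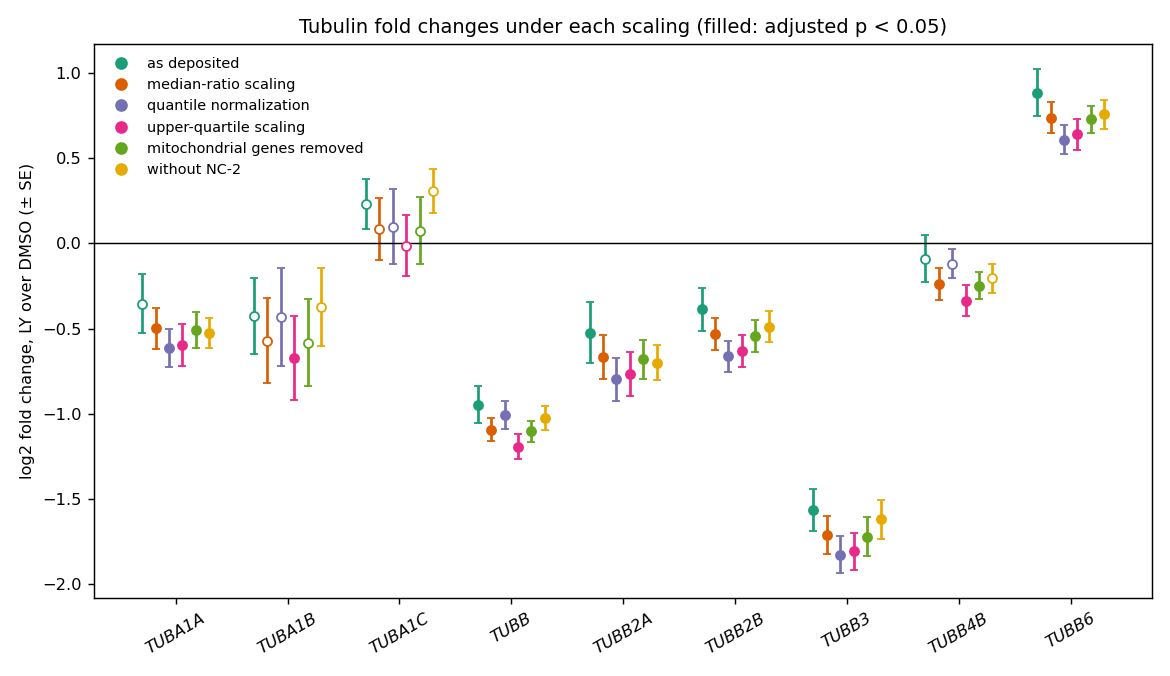
Log2 fold change ± SE of each tested member (vertical axis) under 6 settings (colours), with filled points for a limma adjusted p under 0.05. TUBB, TUBB3, TUBB2A and TUBB2B lie below 0 and TUBB6 above 0 under all 6, while TUBA1A, TUBA1B and TUBB4B are called under some settings only.

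Of 12 other tubulin genes, 7 passed the filter, and 3 rose, 3 fell and 1 was not called. Of all tested genes, 39.8% were higher and 24.9% lower. TUBB4A (ENSG00000104833, chromosome 19, 6494319 to 6502848, minus strand), the class IVa isotype known from brain, measured 80.2, 93.4, 77.6, 79.2 and 67.5 TPM in NC-1 to NC-5 and 17.1, 14.9, 9.72, 10.1 and 12.4 TPM in LY-1 to LY-5. Every LY library was far below every control, and TUBB4A fell by 2.56 ± 0.15 on the log2 scale (limma adjusted p = 7.47e-08), more than any of the 10 members. TUBB8, known from oocytes, was near 1 TPM and fell by 0.39 ± 0.15 (limma adjusted p = 0.0349), a call that was lost with quantile normalization (limma adjusted p = 0.321) and without LY-1, LY-3, LY-5, NC-1 or NC-3 (0.0638 to 0.0778). The gamma-tubulins TUBG1 and TUBG2, which nucleate microtubules, rose by 0.62 ± 0.11 (202 ± 4.58 TPM in DMSO, 316 ± 53.9 in LY) and 0.83 ± 0.12 (45.1 ± 5.69 and 81.2 ± 11.3 TPM). The delta-tubulin TUBD1, a centriole protein, fell by 0.95 ± 0.12. The epsilon-tubulin TUBE1 rose by 0.35 ± 0.11 (limma adjusted p = 0.0145), but was not called under any of the 4 scalings (highest limma adjusted p 0.442). TUBA3D was not called, and TUBA3C and TUBAL3 were at 0 in every library.

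Genes listed around autoregulation went both ways. Of 16 tested genes of this list, 6 rose, 4 fell and 6 were not called (median log2 difference 0.093). The list includes the CCR4-NOT subunits and also BTF3, which rose, TNKS1BP1, which fell, and NACA, which was not called. For this and the lists that follow, 64.6% of all tested genes were called. TTC5, the reader of nascent tubulin, measured 4.68, 3.59, 5.001, 4.12 and 7.49 TPM in NC-1 to NC-5 and 2.67, 2.73, 2.91, 3.11 and 5.04 TPM in LY-1 to LY-5, and the groups overlapped through LY-5. It fell by 0.47 ± 0.18 (limma adjusted p = 0.0392), and the call was lost in 9 of 20 alternative settings, with no filter, with quantile normalization, and without LY-1, LY-2, LY-3, LY-4, NC-1, NC-3 or NC-5 (limma adjusted p 0.0596 to 0.097). SCAPER, the adaptor between TTC5 and CCR4-NOT, rose from 3.20 ± 0.390 to 6.86 ± 1.90 TPM (log2 difference 0.88 ± 0.15, limma adjusted p = 0.000352), with no overlap between groups. CNOT11, the subunit that SCAPER binds, was at 49.0 ± 3.32 TPM in DMSO and 49.1 ± 2.78 in LY (log2 difference 0.0033 ± 0.084). CNOT4, a ubiquitin ligase that associates with the complex, rose by 1.23 ± 0.22, and the deadenylase CNOT8 fell by 0.58 ± 0.15.

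Folding of new tubulin needs prefoldin, the CCT chaperonin and the cofactors TBCA to TBCE. Of 13 tested cofactor and prefoldin genes, 5 rose, 2 fell and 6 were not called (median log2 difference 0.24). The prefoldin subunit PFDN2 rose from 204 ± 40.0 to 566 ± 60.3 TPM (log2 difference 1.49 ± 0.15), and TBCD, which assembles the dimer, fell by 0.58 ± 0.16. Of the 8 CCT subunits, 4 rose and 4 were not called as deposited (median 0.34), and CCT2 rose by 0.88 ± 0.11. Under the 4 scalings 3 to 4 CCT genes rose and 1 to 2 fell, where 29.6% to 34.8% of all tested genes rose and 31.7% to 36.3% fell.

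Enzymes that modify tubulin were split, with 4 of 16 tested genes higher, 8 lower and 4 not called (median log2 difference -0.33), beside 39.8% of all tested genes higher and 24.9% lower. TTLL1, a polyglutamylase, fell from 9.27 ± 1.28 to 1.80 ± 0.398 TPM (log2 difference -1.88 ± 0.13), and TTLL11, of the same family, rose from 3.16 ± 0.790 to 8.21 ± 1.66 TPM (1.14 ± 0.16). For the gamma-tubulin complex and augmin, which start new microtubules, 5 of 22 tested genes rose, 6 fell and 11 were not called. Under the 4 scalings 10 to 12 were lower, where 31.7% to 36.3% of all tested genes were lower, against 24.9% as deposited. The augmin subunits HAUS2 (1.20 ± 0.26) and HAUS1 (-1.53 ± 0.091) had the largest rise and fall.

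Of 18 tested microtubule-binding and stabilising proteins, 10 rose, 3 fell and 5 were not called (median log2 difference 0.70, beside 0.17 for all genes), where 39.8% of all tested genes were higher and 24.9% lower. Under the 4 scalings 9 to 10 of these genes rose and 4 to 6 fell. Of all tested genes, 29.6% to 34.8% were higher and 31.7% to 36.3% lower under these scalings. MAP1B, among those that rose, passed the filter through the LY libraries only (0.692 ± 0.0701 TPM in DMSO, 3.03 ± 0.396 in LY). MAP7D3, which binds along the lattice, rose from 29.3 ± 12.01 to 84.4 ± 18.3 TPM (1.54 ± 0.22), and CAMSAP3, a minus-end protein, fell from 8.84 ± 1.29 to 4.14 ± 0.704 TPM (-0.94 ± 0.13). Among 11 tested destabilising and severing proteins, 3 rose, 3 fell and 5 were not called. STMN3, of the stathmin family that sequesters dimers, fell from 523 ± 103 to 109 ± 6.47 TPM (-2.23 ± 0.14), and KATNA1, the catalytic subunit of katanin, rose from 33.2 ± 0.951 to 59.0 ± 4.21 TPM (0.81 ± 0.081). TUBG1 and TUBG2 are counted both in the gamma-tubulin complex and among the other tubulins.

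**Figure D4:**
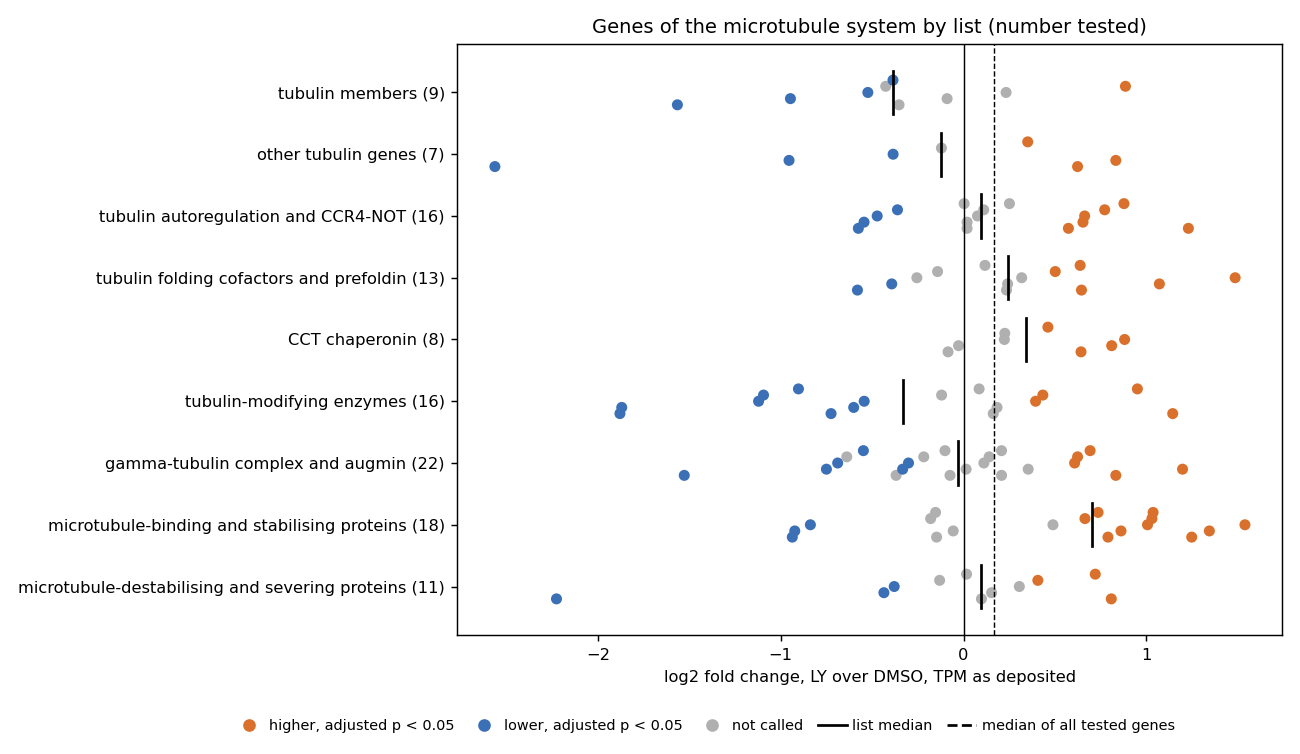
Log2 fold change (horizontal axis) of every tested gene of the tubulins and of the lists around them, 1 row per list, coloured by call, with the list median (solid) and the median of all tested genes (dashed, 0.17). Most of the 18 microtubule-binding genes lie right of 0, and the tubulin members lie mostly left of it.

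The non-tubulin genes most like the leading alpha and beta members over the 10 libraries were found by Pearson's r of log2(TPM + 1), as a description. Tubulin genes were left out of this ranking. For TUBA1B these were ENSG00000258790, which has no symbol (r = 0.918), RFX7 (0.907) and TMEM123 (0.905). For TUBB4B they were DEAF1 (0.981), XRCC3 (0.979) and TOP3B (0.965), and r was 0.965, 0.960 and 0.926 without NC-2. The points share group and library composition.

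The labelled cell type was checked on marker genes. Of 5 epithelial markers, KRT8, KRT18 and KRT19 measured 1419, 714 and 148 TPM in DMSO, while EPCAM was at 0.923 and KRT7 at 0.0744 TPM. In LY, KRT8 was at 1344 TPM (not called), KRT18 rose to 1010.0 TPM, KRT19 fell to 21.0 TPM, EPCAM was at 1.46 TPM (not called) and KRT7 at 0.0444 TPM. Of the acinar, endocrine, leukocyte, endothelial and fibroblast markers, CDH5 (0.368 TPM in DMSO, 3.01 in LY) and COL1A1 (2.85 and 0.455) reached a mean of 1 TPM in a group.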

How the data were processed

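RNA of PANC-1 cells was sequenced in 10 libraries, 5 with LY and 5 with DMSO. The authors deposited 1 table of TPM per gene. For read totals, aligner, counter, annotation, strand setting and read length, the entry is: not given in the sources used here. The submitters' processing notes list GRCm38, mm10 and hg38 as builds, without roles. The LY columns were matched to samples by title, and the NC columns were assigned to the DMSO group only. Ensembl identifiers were given symbols from a name table or GENCODE release 29, which also gave positions (hg38) and coding starts.

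From the deposited TPM, log2(TPM + 1) was fitted with limma 3.58.1 (R 4.3.3, trend, group as the only term) over genes at 1 TPM or more in at least 5 libraries, with Benjamini-Hochberg adjustment over all of them. The procedure was tested on simulated data. Shares and sums were computed within each library and not tested. Alternatives were other pseudocounts (0.1 and 0.5), no filter and a filter at 5 TPM, 4 scalings, robust moderation, limma without trend and leaving out each library. Leaving out NC-2 together with median-ratio scaling was added after seeing the data. The members and lists were chosen with earlier results of these data known. Within each list around tubulin, the genes named by rule were TTC5, SCAPER and CNOT11 and the called genes with the largest rise and fall. BTF3, TNKS1BP1, NACA and MAP1B were named outside this rule. So were VASH1, VASH2, SVBP, TTL and MATCAP1, which are given under other observations.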

Additional observations from a re-analysis of the deposited data

Results flagged for a closer look

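In 8 of 34 groups of 5 libraries, 1 library lay so far from the others that its gap to the nearest, divided by the range of the group, was above 0.71. Chance gives about 5% of independent groups. These groups are not independent, because the sums hold the members and the same libraries recur. All 8 were DMSO groups, and the library was NC-2 in each. NC-2 was high for TUBA1B (ratio 0.798, 2313 TPM against 1857 to 1949 in the other controls), TUBA1C (0.767, 905 against 670.3 to 725) and the alpha sum (0.761, 3343 against 2772 to 2908). It was low for TUBB (0.888, 1235 TPM against 1604 to 1651), TUBB2B (0.736, 88.5 against 120.4 to 132), TUBB4B (0.734, 926 against 1308 to 1447), TUBB6 (0.805, 85.7 against 128 to 138) and the beta sum (0.831, 2682 against 3683 to 3887). Mitochondrially encoded genes took 37.5% of TPM in NC-2, and their part in these values was not tested.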

How the results depend on the processing

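TUBB, TUBB2B, TUBB3 and TUBB6 kept their direction and call under all 21 alternatives. Their log2 differences ran from -1.19 to -0.92 (TUBB), -0.66 to -0.35 (TUBB2B), -1.83 to -1.48 (TUBB3) and 0.61 to 0.93 (TUBB6). With no filter 2 members were called higher, since TUBA4A was then tested, and with upper-quartile scaling 7 were called lower, against 4 as deposited. The share of all tested genes called lower was 36.3% with upper-quartile scaling, against 24.9% as deposited. With upper-quartile scaling the log2 ratio of the beta sums was -0.71, against -0.47. Some values near 0 changed sign. TUBA1C was -0.014 with upper-quartile scaling. TUBA3D was 0.095 with quantile normalization. CNOT11 was -0.14 with median-ratio scaling, -0.25 with quantile normalization, -0.24 with upper-quartile scaling and -0.15 without mitochondrial genes, and -0.063 to 0.037 when 1 library was left out. The cause was not tested. No paired analysis was possible because the NC column names carry no tie to the numbered DMSO samples. TPM keeps no depth, so the counting error of low genes such as TUBA4A is unknown.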

Other observations

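The tyrosine cycle of the alpha-tubulin tail was looked at after its values had been seen. VASH1, a carboxypeptidase that removes the C-terminal tyrosine, fell from 23.9 ± 5.27 TPM in DMSO to 5.73 ± 1.11 in LY (n = 5 each, log2 difference -1.87 ± 0.18, limma adjusted p = 2.43e-06). Its partner SVBP fell from 23.1 ± 3.15 to 10.2 ± 1.07 TPM (-1.09 ± 0.12, limma adjusted p = 6.43e-06). TTL, the ligase that restores the tyrosine, rose from 15.6 ± 1.14 to 21.4 ± 1.24 TPM (0.43 ± 0.088, limma adjusted p = 0.000989). The median of all tested genes was 0.17, and TTL stood 0.27 above it. Alternative scalings are not given for TTL, VASH1 and SVBP. None of the 3 genes overlapped between the groups, where 49.4% of all tested genes did not overlap. From the same list of modifying enzymes, MATCAP1 fell by 0.54 ± 0.14 with overlapping groups. VASH2, at 1.003 TPM in DMSO and 0.0523 in LY, was not tested.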
